A study of Homo sapiens with 18 samples.

Results

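Enzalutamide was compared with its vehicle, DMSO, in cells carrying the second of the study's guides against OGDHL. The cells were 16D, an established castration-resistant prostate cancer line, transduced with a lentivirus that carried Cas9 and a guide RNA. The comparison was chosen by the names of the libraries: 3 libraries of sgOGDHL_2_Enza (10 µM enzalutamide for 6 weeks) against 3 libraries of sgOGDHL_2_DMSO (DMSO for 6 weeks), 6 of the 18 libraries in all. The other 12 were sgOGDHL_1_Enza, sgOGDHL_1_DMSO (the first OGDHL guide) and sgAAVS_Enza, sgAAVS_DMSO (a control guide named after AAVS, the safe-harbour locus), 3 libraries each, with the same drug, vehicle and duration. All 6 groups therefore share the line, Cas9 and serum-containing medium. The labels do not say whether the cells with a guide were clones or mixed populations, nor whether the 3 libraries of a group came from separate cultures, so every p-value here measures only the spread between these libraries.

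Enzalutamide blocks androgen signalling, which drives luminal prostate genes such as KLK3, the gene of prostate-specific antigen. Genes that androgens activate fall under such a block and genes that androgens repress rise. Other gene groups measured here are targets of p53, a transcription factor activated by DNA damage and other stresses whose product p21 (CDKN1A) arrests the cell cycle, the mitotic genes that dividing cells express, and the genes switched on by DUX4, a transcription factor of the cleavage-stage human embryo that is silent in most adult tissues.

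OGDHL, which encodes a 2-oxoglutarate dehydrogenase-like protein and is the guide's target on chromosome 10 (GRCh38, 49734643 to 49762379, minus strand), was measured first. Its level was 5.20, 5.38 and 5.36 TPM (transcripts per 1000000, after removal of mitochondrial and unnamed entries and rescaling) in guide 2 enzalutamide, against 7.66, 8.84 and 7.93 TPM in the libraries labelled guide 2 in DMSO. The 3 and 3 libraries did not overlap, and the change was -0.53 ± 0.10 on the log2(TPM + 1) scale (SE; limma, adjusted p = 1.8e-04). Control-guide cells had 9.41 ± 0.343 TPM in enzalutamide and 5.61 ± 0.116 TPM in DMSO (SD, n = 3 each), and guide 1 cells had 3.04 ± 0.243 and 2.92 ± 0.747 TPM. OGDHL was thus higher in the libraries labelled guide 2 in DMSO than in control-guide DMSO (0.47, limma adjusted p = 5.1e-04), which goes against the label of a knockout, and lower in guide 2 enzalutamide than in control-guide enzalutamide (-0.72, limma adjusted p = 1.3e-04). A transcript level says nothing about whether the DNA was cut. OGDH, the paralogous subunit of the same enzyme complex family, had 30.8 ± 0.400 TPM in guide 2 enzalutamide and 37.2 ± 0.842 TPM in the libraries labelled guide 2 in DMSO (SD, n = 3 each), a change of -0.27 ± 0.06 (SE) that was not called with median-of-ratios or quantile scaling.

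The libraries labelled guide 2 in DMSO stood apart from the other 15 before any gene was tested. Their log2(TPM + 1) profiles correlated at 0.916 to 0.920 across genes with guide 2 enzalutamide and at 0.911 to 0.917 with control-guide DMSO, while guide 2 enzalutamide correlated at 0.991 to 0.992 with control-guide enzalutamide. Between 14775 and 14812 gene symbols reached 1 TPM in guide 2 enzalutamide, between 15871 and 16003 in the libraries labelled guide 2 in DMSO, between 14436 and 14679 in control-guide enzalutamide and between 14331 and 14409 in control-guide DMSO. Mitochondrially encoded genes took 57.2% to 62.3% of the deposited TPM in guide 2 enzalutamide and 50.1% to 59.6% in the libraries labelled guide 2 in DMSO. Luminal prostate markers were high in both: HOXB13, a prostate homeobox factor, averaged 1138 ± 6.04 TPM in guide 2 enzalutamide and 843 ± 3.67 TPM in the libraries labelled guide 2 in DMSO (SD, n = 3 each), and KRT18, a luminal keratin, 369 ± 5.13 and 455 ± 5.02 TPM. Basal markers (KRT5, KRT14, KRT15, TP63) summed to 0.0829 to 0.185 TPM in guide 2 enzalutamide against 2.97 to 3.94 TPM in the libraries labelled guide 2 in DMSO, and leukocyte markers (PTPRC, CD3E, CD14, CD79A, LYZ) to 0.367 to 0.799 against 3.78 to 4.04 TPM. Endothelial markers stayed under 1.21 TPM in sum in both. Neuroendocrine markers summed to 2.60 to 2.87 against 2.50 to 2.87 TPM. Fibroblast markers had the highest sums outside the luminal list, 13.9 to 14.9 against 19.1 to 23.6 TPM, and 16.9 to 17.9 TPM in control-guide DMSO. Most of the fibroblast sum was COL1A1, at 12.9 to 13.8 against 18.2 to 22.7 TPM. What part these low levels of other cell types' markers have in the results was not tested. Because all 3 libraries labelled guide 2 in DMSO stood apart, drug and vehicle cannot be compared in guide 2 cells without them. Control-guide values are given beside many of the results, and guide 1 values beside some.

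Of 16694 genes tested with limma, 4057 (24.3%) were higher and 8095 (48.5%) lower in guide 2 enzalutamide than in the libraries labelled guide 2 in DMSO at an adjusted p under 0.05, so 72.8% of all genes were called. At least a 2-fold change was called for 572 genes (3.43%) higher and 2145 (12.8%) lower. In control-guide cells 4636 genes (27.8%) were higher and 3560 (21.3%) lower, 8196 (49.1%) in all, with 427 (2.56%) and 373 (2.23%) of them past 2-fold. Guide 1 cells gave 3990 (23.9%) higher and 3453 (20.7%) lower. The guide 2 change differed from the control-guide change for 10741 genes (64.3%) by limma's interaction test. The balance of the guide 2 calls depended on the scaling. The median change of all tested genes was -0.18 here, -0.30 with TPM as deposited (1507 higher, 6476 lower), 0.05 with median-of-ratios scaling (6341 higher, 5388 lower) and 0.08 with quantile normalization (6764 higher, 5390 lower), so small changes are to be read against these shifts. Only through the libraries labelled guide 2 in DMSO did 1115 genes pass the filter on low values, with fewer than 3 other libraries at 1 TPM. The filter favoured a fall in enzalutamide for these genes, without fixing it, so their falls are no result on their own.

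The 12152 called genes were sorted by what the same gene did in control-guide cells. Genes called with the same sign there are called shared: 3943 genes (32.4% of those called), 1752 higher and 2191 lower. Genes called there with the other sign numbered 2702, of which 776 were higher and 1926 lower in guide 2 enzalutamide. Vehicle-side genes numbered 3787 (31.2%), 903 higher and 2884 lower. Of these, 574 (15.2%) passed the filter on low values only through the libraries labelled guide 2 in DMSO, against 162 (4.11%) of the shared genes. Vehicle-side genes were not called in control-guide cells, and the interaction was called. They differed between the DMSO libraries of guide 2 and the control guide in the direction opposite to the drug change. Between the enzalutamide libraries of those guides they did not differ. A further 519 met the same description except that the enzalutamide libraries kept part of the difference (149 higher, 370 lower). This last group was split off after the data were seen. Between the DMSO libraries of guide 2 and the control guide 8869 genes (53.1%) were higher and 3728 (22.3%) lower in guide 2, 75.5% in all, and between their enzalutamide libraries 1915 (11.5%) were higher and 905 (5.42%) lower, 16.9% in all. Enzalutamide-side genes numbered 32. They were not called in control-guide cells, the interaction was called, and the guides differed in enzalutamide, with the sign of the drug change, but not in DMSO. Genes called in control-guide cells, such as NTS, could not enter this class. The 32 are therefore not all the genes that differed between guides in enzalutamide alone. A further 64 genes not called in control-guide cells, with the interaction called, differed between guides in both treatments. Their sign was opposite to the drug change in DMSO and the same in enzalutamide. The remaining 1105 called genes (9.09%) met none of these descriptions. The guide 2 comparison and the comparison of DMSO libraries share libraries, so these class sizes are counts and carry no test. Per library, 3 and 3 libraries did not overlap for 81.2% of all tested genes.

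**Figure D1:**
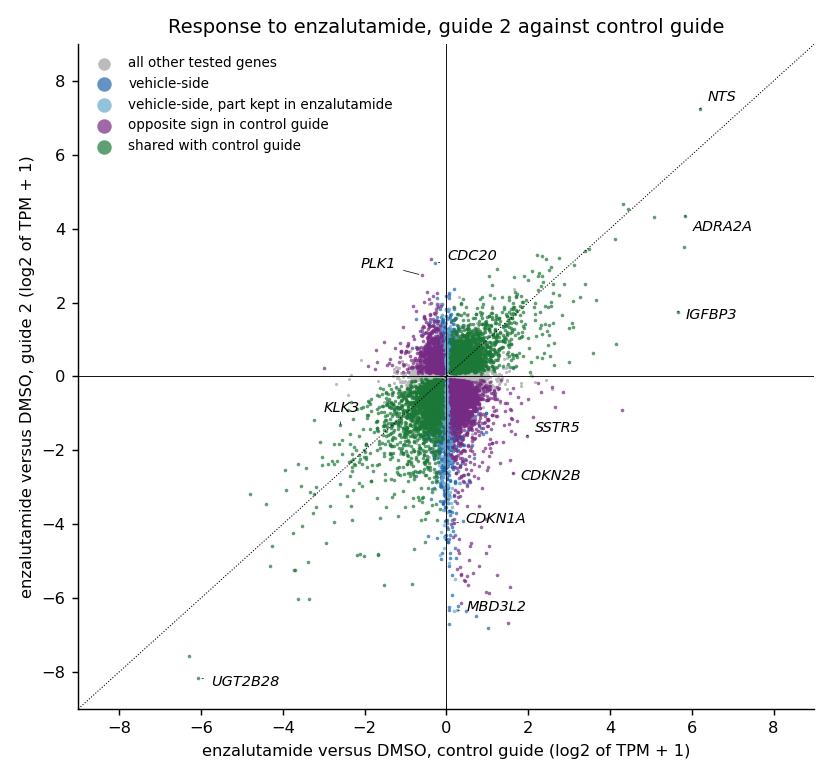
Change with enzalutamide against DMSO in guide 2 cells (vertical axis) and control-guide cells (horizontal axis), in log2(TPM + 1) units, for each of the 16694 tested genes, coloured by class. NTS, ADRA2A, KLK3 and UGT2B28 lie away from the centre in both directions of drug change, while CDKN1A, MBD3L2, CDC20 and PLK1 lie near 0 or within 1 unit of it on the control-guide axis and far from 0 on the guide 2 axis.

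Androgen-responsive genes fell in guide 2 cells. Of 35 tested genes on a list of androgen-responsive genes, 28 fell and 5 rose against the 48.5% and 24.3% of all genes, with a median change of -0.88. The same 35 had a median of -1.16 in control-guide cells and -0.42 in guide 1 cells, and 28 of them were shared. KLK3 was at 321, 338 and 315 TPM in guide 2 enzalutamide against 796, 818 and 796 TPM in the libraries labelled guide 2 in DMSO. Every enzalutamide library lay below every DMSO library, and the fall was -1.30 ± 0.07 (SE; limma, adjusted p = 1.6e-10). In control-guide cells KLK3 averaged 163 ± 5.61 TPM in enzalutamide and 991 ± 22.8 TPM in DMSO (SD, n = 3 each), a larger fall of -2.60, and the difference between the falls was 1.29 ± 0.09 (limma interaction, adjusted p = 1.8e-08). KLK3 went the other way in guide 1 cells, with 2477 ± 104 TPM in enzalutamide and 1106 ± 136 TPM in DMSO.

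The promoter of KLK3 is shown because it is the classic androgen-responsive promoter. KLK3 was also 1 of many listed genes whose change differed between guide 2 and control-guide cells. The interaction was called for 30 of the 35 tested androgen-responsive genes. The sequence is RefSeq's on GRCh38.p14, chr19:50854665-50854964, plus strand, from 250 bases before to 50 after the gene start. Capitals mark AGAACA, a half-site of steroid hormone response elements, searched on both strands.
KLK3: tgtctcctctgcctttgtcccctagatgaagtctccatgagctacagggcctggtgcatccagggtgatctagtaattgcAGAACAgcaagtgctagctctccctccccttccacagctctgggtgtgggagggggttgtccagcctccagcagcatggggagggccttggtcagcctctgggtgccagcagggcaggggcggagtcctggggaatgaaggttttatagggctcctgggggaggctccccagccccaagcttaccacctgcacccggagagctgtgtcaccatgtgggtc
The match starts 170 bases before the gene start. AGAACA was in a promoter of 17.5% of all 27305 genes with one in the table (14.8% of 35116 promoters) and in 4 of 22 matched androgen-responsive genes (FKBP5, KLK3, PMEPA1 and TRPM8), so its presence is a description only.

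Other androgen-responsive genes also fell in guide 2 cells. FKBP5, a co-chaperone of steroid receptors, was at 3.63, 3.49 and 3.61 TPM in guide 2 enzalutamide against 9.52, 9.62 and 9.99 TPM in the libraries labelled guide 2 in DMSO (-1.23 ± 0.04; limma, adjusted p = 1.2e-12). SLC45A3, which encodes the luminal membrane protein prostein, was at 8.04, 8.0 and 7.87 TPM against 50.0, 51.0 and 51.7 TPM (-2.53 ± 0.11; limma, adjusted p = 3.7e-11). For both genes the enzalutamide libraries lay below all DMSO libraries and close to control-guide enzalutamide, where FKBP5 averaged 3.93 ± 0.187 and SLC45A3 6.98 ± 0.675 TPM. KLK2, a kallikrein neighbour of KLK3, fell by 1.04, and TMPRSS2, a serine protease whose promoter drives ERG fusions in many tumours, fell by 0.74. For KLK3, KLK2, FKBP5, SLC45A3 and TMPRSS2 alike, the guide 2 fall was smaller than the control-guide fall by limma's interaction test, though for TMPRSS2 not with TPM as deposited. All but TMPRSS2 were lower in the libraries labelled guide 2 in DMSO than in control-guide DMSO. By the levels given above, KLK3 was also higher in guide 2 enzalutamide than in control-guide enzalutamide. Other androgen-responsive genes went the other way, with negative interaction values of -1.57 for MAF, -0.80 for ELL2 and -0.78 for NDRG1.

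UGT2B enzymes, which inactivate androgens by glucuronidation, included the genes with the steepest falls among the shared genes named here. UGT2B28 was at 1.53, 1.47 and 1.53 TPM in guide 2 enzalutamide against 723, 728 and 715 TPM in the libraries labelled guide 2 in DMSO (-8.17 ± 0.07; limma, adjusted p = 1.1e-18). UGT2B11 was at 7.18, 8.01 and 7.31 TPM against 1642, 1571 and 1653 TPM (-7.58 ± 0.10). In neither case did a library of one group come near the other. Control-guide cells fell by 6.06 and 6.30, with DMSO levels of 116.04 ± 4.57 TPM for UGT2B28 and 523 ± 9.68 TPM for UGT2B11. The larger guide 2 falls (interaction -2.11 and -1.27) went with higher DMSO levels, since the enzalutamide levels of UGT2B28 were 1.51 and 0.750 TPM in the guides' cells. UGT2B15, the main dihydrotestosterone-glucuronidating family member of the prostate, fell by 2.30 with nearly equal DMSO levels (115.9 TPM in guide 2, 114 TPM in the control guide). The UGT2B genes are close copies of each other, so reads may be divided between them uncertainly.

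Androgen-repressed genes rose. Of 12 tested genes on that list 9 rose and 3 fell, against 24.3% and 48.5% of all genes, with a median of 1.44 in guide 2, 1.93 in control-guide and 1.10 in guide 1 cells, and all 12 were shared with control-guide cells. The 3 that fell were UGT2B15, its neighbour UGT2B17 and KLF5, a Krüppel-like transcription factor. NTS, which encodes the neuropeptide neurotensin, led the genes that rose. It was at 169.8, 161 and 160.0 TPM in guide 2 enzalutamide against 0.102, 0.0840 and 0.0642 TPM in the libraries labelled guide 2 in DMSO (7.25 ± 0.04; limma, adjusted p = 8.4e-20). Control-guide cells had 77.0 ± 2.35 TPM in enzalutamide and 0.0645 ± 0.0143 TPM in DMSO (SD, n = 3 each), so the guide 2 rise was larger by 1.05 ± 0.06 (limma interaction, adjusted p = 2.2e-09). TRIB2, a Tribbles pseudokinase, was at 36.2, 36.6 and 37.0 TPM against 0.871, 0.858 and 0.895 TPM, a rise of 4.33 that was smaller than the control-guide rise of 5.07.

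WNT5A, a non-canonical WNT ligand, and TNC, the matrix glycoprotein tenascin C, rose alike in both guides' cells. WNT5A was at 31.9, 32.1 and 31.9 TPM in guide 2 enzalutamide against 1.83, 1.94 and 2.39 TPM in the libraries labelled guide 2 in DMSO (3.44 ± 0.07). TNC was at 12.1, 11.2 and 11.4 TPM against 0.195, 0.221 and 0.180 TPM (3.39 ± 0.04). The differences from the control-guide rise had 95% intervals of -0.25 to 0.14 for WNT5A and -0.11 to 0.12 for TNC, although with quantile normalization the TNC rise was called larger in guide 2. AIDA, an axin-interacting protein, rose by 4.54 and its processed pseudogene AIDAP1 by 4.66. The pair are near-identical in sequence, so which of them gave the reads is uncertain. NR3C1, the glucocorticoid receptor, a ligand-activated transcription factor, stayed low but rose by 1.28, with 1.5, 1.47 and 1.5 TPM in guide 2 enzalutamide against 0.0225, 0.0317 and 0.0354 TPM in the libraries labelled guide 2 in DMSO.

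Some shared genes were already raised in the libraries labelled guide 2 in DMSO, and their log2 rise was smaller than in control-guide cells. IGFBP3, an insulin-like growth factor binding protein, was at 612, 614 and 627 TPM in guide 2 enzalutamide against 191, 178 and 179 TPM in the libraries labelled guide 2 in DMSO (1.75 ± 0.06; limma, adjusted p = 1.7e-12). Control-guide cells reached the same level in enzalutamide, 600.0 ± 38.1 TPM, with 10.9 ± 0.336 TPM in DMSO, so the interaction was -3.91 ± 0.08. LRRN1, a leucine-rich repeat neuronal protein, and ADRA2A, the alpha-2A adrenergic receptor, showed the same order: ADRA2A was at 193, 191 and 195 TPM in guide 2 enzalutamide against 9.91, 8.41 and 7.45 TPM in the libraries labelled guide 2 in DMSO, beside 185 ± 10.8 and 2.28 ± 0.179 TPM in control-guide enzalutamide and DMSO. Of the 2191 shared genes that fell, 1107 fell more in guide 2 than in control-guide cells and 274 fell less. Of the 1752 that rose, 518 rose more and 406 rose less. Over all tested genes the interaction was called negative for 45.5% and positive for 18.8%. Its median over all tested genes was -0.23 here, but quantile normalization turned it to 0.08 and median-of-ratios to 0.07. The counts of larger and smaller falls and rises are therefore to be read against that shift.

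Shared genes that fell more in guide 2 cells included regulators of signalling and transcription. RGS2, which limits G protein signalling, was at 2.92, 3.05 and 2.53 TPM in guide 2 enzalutamide against 148, 145 and 142 TPM in the libraries labelled guide 2 in DMSO (-5.25 ± 0.08), and fell by 3.73 in control-guide cells. MAF, a basic leucine zipper transcription factor, was at 7.61, 7.84 and 7.19 TPM against 178, 193 and 214 TPM (-4.51 ± 0.07), and fell by 2.95. ELOVL7, a fatty acid elongase, was at 0.571, 0.564 and 0.538 TPM against 56.3, 55.2 and 62.6 TPM (-5.24), and fell by 3.69. In all 3 genes the enzalutamide libraries of guide 2 lay within about 3 TPM of the control-guide enzalutamide mean. S100P, a calcium-binding protein, fell by 5.14, and SOX4, a developmental transcription factor, by 2.11. DUSP4, the phosphatase that switches off MAP kinases, fell less than in control-guide cells: 7.09, 7.39 and 6.55 TPM in guide 2 enzalutamide against 74.4, 72.7 and 70.2 TPM in the libraries labelled guide 2 in DMSO (-3.20), beside a control-guide fall of 4.80. HES6, a neuroendocrine-associated helix-loop-helix factor, fell by 2.36, while ENO2, neuron-specific enolase, rose by 1.92 and PEG10, a retrotransposon-derived gene of neuroendocrine prostate cancer, rose by 2.09. PEG10 was lower in DMSO in the libraries labelled guide 2, at 9.96 TPM, than in the control guide, at 32.6 TPM.

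**Figure D2:**
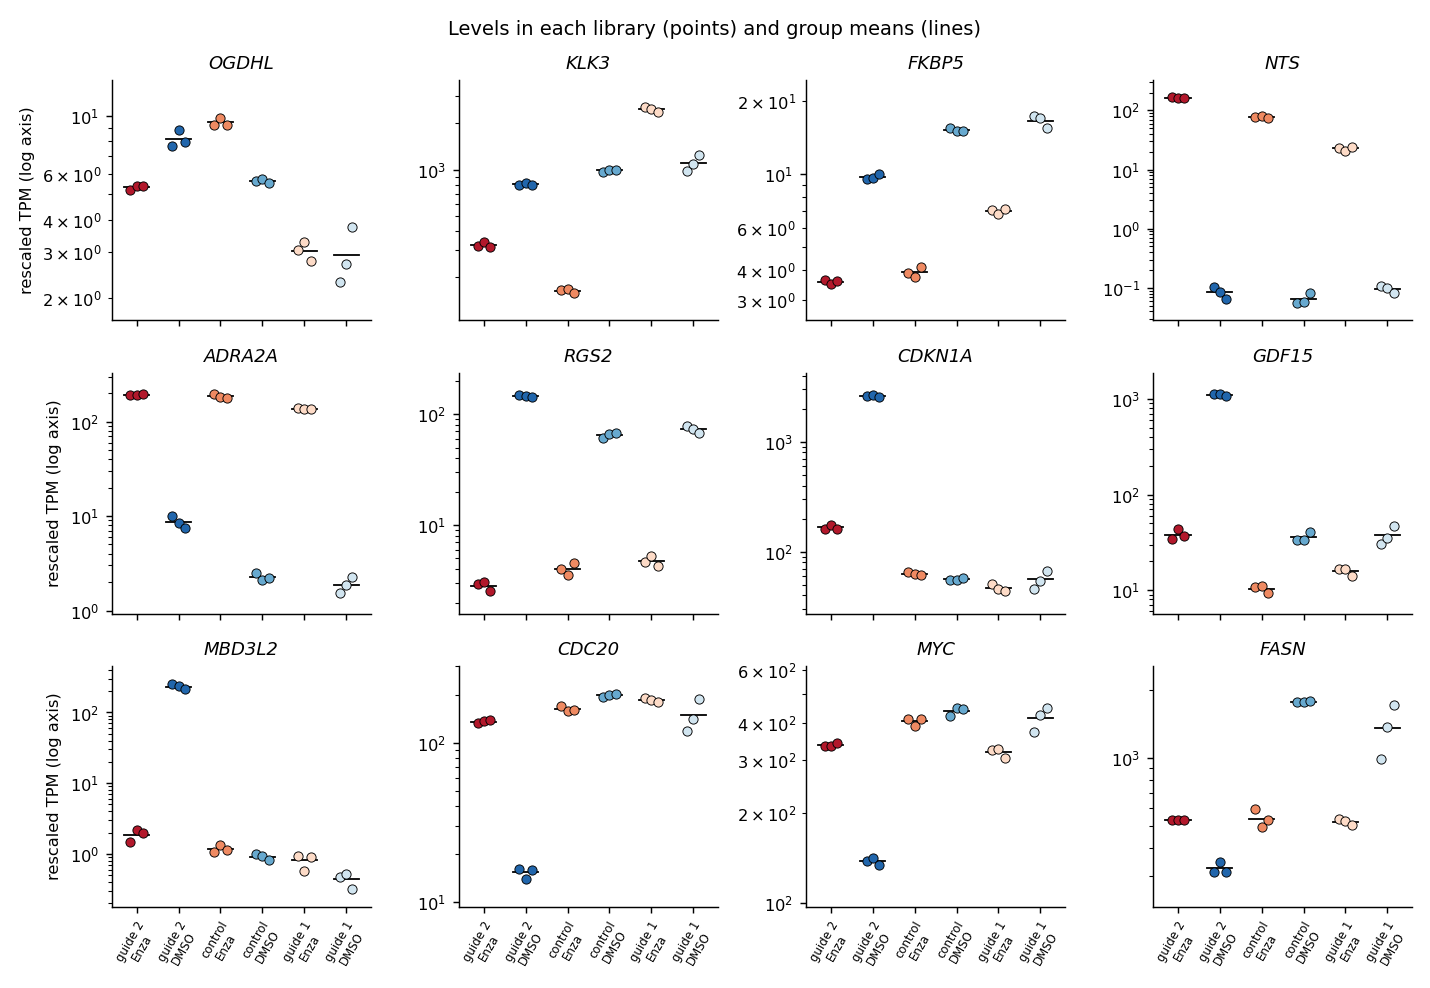
Levels of 12 genes in rescaled TPM (vertical axes, log scale) in each library (points) with group means (lines), for guide 2, control-guide and guide 1 cells in enzalutamide and DMSO. CDKN1A, GDF15 and MBD3L2 are high and CDC20 and MYC low in the 3 libraries labelled guide 2 in DMSO alone, while NTS is high in all 9 enzalutamide libraries.

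Targets of p53 fell together in guide 2 cells and did not in control-guide cells. All 28 tested p53 targets fell in guide 2 cells, 25 of them at least 2-fold, against 48.5% and 12.8% of all tested genes, with a median of -2.33 beside -0.18 over all tested genes. The list's median was 0.13 in control-guide cells (12 rose, 4 fell) and 0.15 in guide 1 cells (13 rose, 5 fell), and the interaction was called for all 28. Summed over all 29 genes of the list, guide 2 enzalutamide held 1829, 1902 and 1847 TPM and the libraries labelled guide 2 in DMSO 9314, 9399 and 9259 TPM. The other 12 libraries held 1069.7 to 1433 TPM. The libraries labelled guide 2 in DMSO were thus the high ones, and guide 2 enzalutamide remained above all the others.

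CDKN1A, which encodes the cyclin-dependent kinase inhibitor p21, was at 162, 177 and 159 TPM in guide 2 enzalutamide against 2638, 2655 and 2544 TPM in the libraries labelled guide 2 in DMSO (-3.97 ± 0.10; limma, adjusted p = 4.2e-14). Control-guide cells had 63.0 ± 1.99 TPM in enzalutamide and 56.0 ± 1.09 TPM in DMSO (SD, n = 3 each), a change of 0.17 that was not called. MDM2, the ubiquitin ligase that degrades p53, was at 53.9, 54.0 and 54.9 TPM against 243, 262 and 273 TPM (-2.23 ± 0.07). FDXR, ferredoxin reductase, fell by 3.55 and PHLDA3, an inhibitor of AKT, by 3.14. Each of CDKN1A, MDM2, FDXR and PHLDA3 stayed higher in guide 2 enzalutamide than in control-guide enzalutamide, by 1.38, 0.33, 0.67 and 0.49 on the log2 scale, each called by limma. GDF15, a stress-induced cytokine, was at 34.2, 43.4 and 37.0 TPM in guide 2 enzalutamide against 1136, 1119 and 1070.1 TPM in the libraries labelled guide 2 in DMSO (-4.83 ± 0.13). It also fell in control-guide cells, by 1.68, so GDF15 counts among the shared genes although most of its guide 2 change was not shared (interaction -3.15 ± 0.19). PCNA, the replication clamp and a p53 target, fell by 1.18, while 25 of the 30 tested replication genes rose (24.3% of all tested genes rose).

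Genes of the early embryo that DUX4 switches on fell to near background. The 28 genes on a list of DUX4-type genes summed to 14.7, 25.2 and 21.8 TPM in guide 2 enzalutamide against 1717, 1674 and 1534 TPM in the libraries labelled guide 2 in DMSO. In control-guide cells the sums were 16.9, 14 and 15.3 TPM in enzalutamide and 7.85, 7.84 and 7.08 TPM in DMSO. The signal was therefore in the 3 libraries labelled guide 2 in DMSO. Of 23 tested members 19 passed the filter on low values only through those libraries, so the list is described by levels and not by its count of calls. MBD3L2, a methyl-CpG-binding domain-like protein of the DUX4 programme, was at 1.49, 2.20 and 1.96 TPM in guide 2 enzalutamide against 249, 234 and 213 TPM in the libraries labelled guide 2 in DMSO (-6.34 ± 0.10; limma, adjusted p = 4.2e-16), and its 12 other libraries averaged between 0.440 and 1.19 TPM per group. ZSCAN4, a zinc-finger gene of the 2-cell-like state in mouse and of the early human embryo, was at 0.638, 0.737 and 0.695 TPM against 63.6, 62.2 and 59.3 TPM. PRAMEF12, of the PRAME family, was at 1.90, 3.21 and 2.23 TPM against 286, 267 and 266 TPM, and H3Y1, a primate histone H3 variant, at 4.39, 9.73 and 7.84 TPM against 431, 438 and 372 TPM. DUX4 itself, below the filter, was at 0, 0 and 0.00822 TPM in guide 2 enzalutamide and at 0.292, 0.347 and 0.352 TPM in the libraries labelled guide 2 in DMSO. DUX4, MBD3L2, PRAMEF12, H3Y1, TRIM49 and TRIM43B all belong to families of near-identical copies, so values of single copies are uncertain and the sum is the firmer measure.

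Promoters of TRIM48 and LEUTX are shown because these genes were high only in the libraries labelled guide 2 in DMSO and hold the sequence that DUX4 binds. They were picked for that match. LEUTX, a paired-like homeobox factor of the embryo, was at 0.0651, 0.0839 and 0.0412 TPM in guide 2 enzalutamide against 8.47, 7.70 and 7.02 TPM in the libraries labelled guide 2 in DMSO, and TRIM48, a tripartite-motif protein, at 0.167, 0.445 and 0.263 TPM against 39.9, 39.7 and 34.5 TPM. Capitals mark the DUX4 motif, TAA and then TAATCA with any 2 bases between them, searched on both strands, in RefSeq sequence on GRCh38.p14 from 250 bases before to 50 after the gene start (TRIM48 at chr11:55261905-55262204 and LEUTX at chr19:39778604-39778903, both plus strand).
TRIM48: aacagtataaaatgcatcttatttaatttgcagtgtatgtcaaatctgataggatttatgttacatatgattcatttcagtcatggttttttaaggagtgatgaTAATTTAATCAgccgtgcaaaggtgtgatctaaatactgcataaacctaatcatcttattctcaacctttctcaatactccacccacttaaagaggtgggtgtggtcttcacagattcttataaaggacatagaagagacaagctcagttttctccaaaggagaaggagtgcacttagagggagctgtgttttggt
LEUTX: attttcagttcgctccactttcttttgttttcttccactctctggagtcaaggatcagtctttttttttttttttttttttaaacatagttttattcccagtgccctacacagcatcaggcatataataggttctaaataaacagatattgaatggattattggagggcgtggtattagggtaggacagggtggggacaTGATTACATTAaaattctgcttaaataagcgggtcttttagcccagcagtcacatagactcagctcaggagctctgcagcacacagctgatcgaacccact
The match starts 146 bases before the TRIM48 start and 51 bases before the LEUTX start, in LEUTX on the opposite strand. The motif was in a promoter of 0.297% of all 27305 genes (0.236% of 35116 promoters) and in 4 of the 23 DUX4-type genes with a promoter in the table (LEUTX, TRIM48, TRIM49B and TRIM51). A related spelling, TAAT and then AATCA with any 2 bases between them, which can overlap the motif, was in a promoter of 0.385% of genes and in 9 of the 23.

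Many other genes that were near 0 in control-guide DMSO were also measured in the libraries labelled guide 2 in DMSO. Of 7261 gene symbols under 0.1 TPM on average in control-guide DMSO, with no filter on other libraries, 57 (0.785%) averaged at least 1 TPM in guide 2 enzalutamide and 357 (4.92%) in the libraries labelled guide 2 in DMSO. Control-guide enzalutamide had 46 (0.634%). Of 3572 symbols between 0.1 and 0.5 TPM, 227 (6.35%) reached 1 TPM in guide 2 enzalutamide and 700 (19.6%) in the libraries labelled guide 2 in DMSO. FOXS1, a forkhead gene of perivascular cells and the leading vehicle-side gene outside multicopy families, was at 0.404, 0.0781 and 0.230 TPM in guide 2 enzalutamide against 90.6, 107 and 97.0 TPM in the libraries labelled guide 2 in DMSO (-6.33). IGF2, the fetal growth factor, was at 1.01, 0.857 and 0.986 TPM against 50.1, 51.0 and 57.5 TPM (-4.78). COL17A1, a hemidesmosomal collagen of basal epithelium, was at 0.510, 0.680 and 0.469 TPM against 15, 15.7 and 15.2 TPM (-3.39). FOXS1 and COL17A1 passed the filter on low values only through the libraries labelled guide 2 in DMSO, so their changes are descriptions. Of the 4 basal markers summed above, the keratin KRT15 was at 0.0239, 0.0116 and 0.0228 TPM in guide 2 enzalutamide against 1.99, 2.66 and 2.80 TPM in the libraries labelled guide 2 in DMSO, and KRT5, KRT14 and TP63 stayed under 1 TPM in all 6 libraries. On a longer list of basal markers 6 of 7 tested genes fell, where 48.5% of all tested genes fell. Of the 7, 5 passed the filter only through the libraries labelled guide 2 in DMSO. The filter favoured a fall in enzalutamide for those 5, so the count is no result on its own. In bulk RNA, a gene in few cells and a gene at a low level in all cells cannot be told apart.

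**Figure D3:**
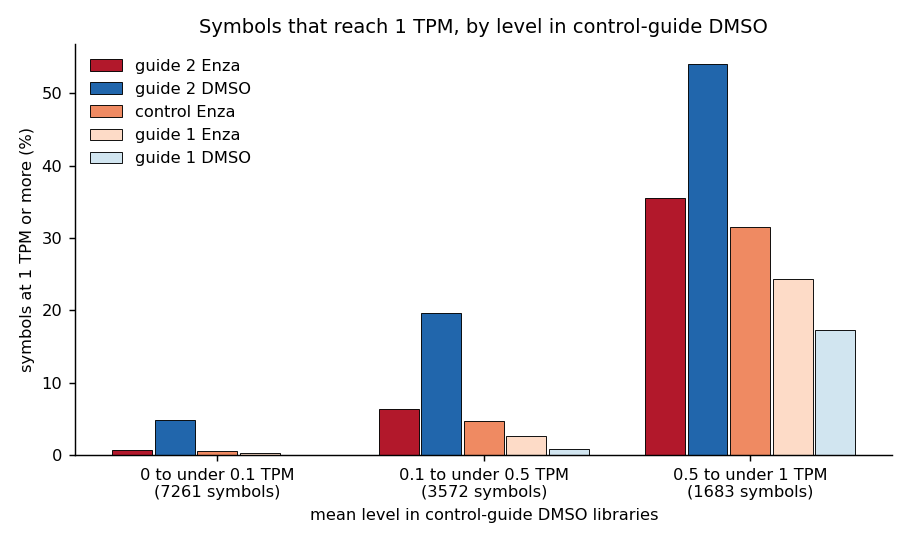
Share of gene symbols that averaged at least 1 TPM (vertical axis, %) in each group, for symbols binned by their mean level in control-guide DMSO (horizontal axis, TPM). The libraries labelled guide 2 in DMSO have the tallest bar in each bin, at 4.92%, 19.6% and 54.1%, against 0.785%, 6.35% and 35.5% in guide 2 enzalutamide.

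Most clustered histone, immediate early and lysosomal genes on the lists fell, where 48.5% of all tested genes fell and 24.3% rose. Of 22 tested histone genes 17 fell and 2 rose, with a median of -1.86, beside -0.18 over all tested genes, 0.07 in control-guide and 0.00 in guide 1 cells. H1-2, a linker histone, was at 292, 292 and 288 TPM in guide 2 enzalutamide against 1827, 1793 and 1822 TPM in the libraries labelled guide 2 in DMSO (-2.64 ± 0.05), and averaged 182 ± 6.09 and 218 ± 15.9 TPM in control-guide enzalutamide and DMSO. H2AC18, a core histone H2A gene, fell by 2.90. These genes have near-identical copies and most of their transcripts lack the poly(A) tail that the library preparation selects, so their levels are uncertain. Of 25 tested immediate early genes, 2 of which passed the filter only through the libraries labelled guide 2 in DMSO, 21 fell and 3 rose (median -0.93, beside 0.27 in control-guide cells). ATF3, a stress-induced transcription factor, was at 3.13, 3.18 and 3.08 TPM against 23.3, 22.9 and 21.8 TPM (-2.52), FOS fell by 2.08 and KLF4 by 2.07. Other stress lists were split: of 14 tested heat shock genes 6 rose and 7 fell, of 32 genes of ATF4 and the integrated stress response 14 rose and 14 fell, and of 21 genes of the unfolded protein response 5 rose and 10 fell, though 11 rose and 5 fell with median-of-ratios scaling. On the ATF4 list 3 rose and 10 fell with TPM as deposited, and 19 rose and 10 fell with median-of-ratios scaling. Of 27 lysosome and autophagy genes 26 fell and LAMP2 alone rose (median -0.83, beside 0.13 in control-guide cells). CTSD, the protease cathepsin D, was at 148, 152 and 149 TPM against 521, 521 and 505 TPM (-1.78 ± 0.15; limma, adjusted p = 5.6e-08), and NEU1, lysosomal sialidase, fell by 1.67. CD68, a lysosomal glycoprotein best known from macrophages, fell by 3.38. Of the 5 leukocyte markers summed above, LYZ, the gene of lysozyme, was at 0.180, 0.156 and 0.239 TPM in guide 2 enzalutamide against 3.22, 3.06 and 3.05 TPM in the libraries labelled guide 2 in DMSO, while PTPRC, CD3E, CD14 and CD79A stayed under 1 TPM in all 6 libraries. TAP1, the peptide transporter of antigen presentation, fell by 2.14 with 25.8 ± 0.219 TPM in guide 2 enzalutamide and 118 ± 4.22 TPM in the libraries labelled guide 2 in DMSO (SD, n = 3 each), although the median of 13 antigen presentation genes was -0.10 and turned positive with median-of-ratios (0.17) and quantile (0.14) scaling. NEAT1, a nuclear long noncoding RNA, fell by 1.26, and MALAT1 was not called (-0.12).

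Cell division genes moved the other way. All 30 tested mitosis and G2/M genes rose in guide 2 cells, 28 of them at least 2-fold, against 24.3% and 3.43% of all tested genes, with a median of 1.62 beside -0.29 in control-guide cells (23 fell, 1 rose) and -0.01 in guide 1 cells (6 rose, 4 fell). The list summed to 1199.9, 1173 and 1200.2 TPM in guide 2 enzalutamide against 378, 393 and 406 TPM in the libraries labelled guide 2 in DMSO, and to 1415 to 1484 TPM in control-guide enzalutamide and 1772 to 1826 TPM in control-guide DMSO. Guide 2 enzalutamide thus lay between the low libraries labelled guide 2 in DMSO and the control-guide libraries. CDC20, the activator of the anaphase-promoting complex and the leading vehicle-side gene that rose, was at 132, 136 and 138 TPM in guide 2 enzalutamide against 16.2, 13.9 and 15.9 TPM in the libraries labelled guide 2 in DMSO (3.06 ± 0.12; limma, adjusted p = 5.3e-12). PLK1, a mitotic kinase, was at 47.0, 46.9 and 46.1 TPM against 5.88, 6.59 and 5.99 TPM (2.74 ± 0.04) but fell by 0.59 in control-guide cells. UBE2C, an anaphase-promoting ubiquitin-conjugating enzyme, rose by 2.18, AURKA, Aurora kinase A, by 2.00 and HMMR, a spindle protein, by 1.92.

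Promoters of CDC20 and PLK1 are shown because mitotic genes rose as a group and commonly carry a CHR element, the promoter sequence through which cell cycle-dependent repression acts. Capitals mark TTTGAA, the core of that element, searched on both strands, in RefSeq sequence on GRCh38.p14 from 250 bases before to 50 after the gene start (CDC20 at chr1:43358731-43359030 and PLK1 at chr16:23678639-23678938, both plus strand).
CDC20: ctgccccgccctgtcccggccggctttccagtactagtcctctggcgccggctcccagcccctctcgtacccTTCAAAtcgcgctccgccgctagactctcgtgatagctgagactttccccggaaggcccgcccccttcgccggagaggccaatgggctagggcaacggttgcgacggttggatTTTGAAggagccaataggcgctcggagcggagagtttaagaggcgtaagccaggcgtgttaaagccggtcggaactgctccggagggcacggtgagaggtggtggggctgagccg
PLK1: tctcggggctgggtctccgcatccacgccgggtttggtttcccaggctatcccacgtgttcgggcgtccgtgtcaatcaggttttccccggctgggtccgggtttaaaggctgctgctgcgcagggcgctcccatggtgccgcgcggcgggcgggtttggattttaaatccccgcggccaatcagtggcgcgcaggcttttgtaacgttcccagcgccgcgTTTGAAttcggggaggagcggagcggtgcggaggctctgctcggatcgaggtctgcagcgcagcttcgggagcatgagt
Matches start 178 and 65 bases before the CDC20 start and 29 bases before the PLK1 start. TTTGAA was in a promoter of 18.2% of all 27305 genes (15.2% of 35116 promoters), in 17 of 25 matched mitosis genes (68.0%) and in 3 of 22 matched androgen-responsive genes.

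Replication and growth genes rose as well, by less. For the lists that follow, 24.3% of all tested genes rose and 48.5% fell. Of 30 DNA replication and G1/S genes 25 rose and 3 fell (PCNA, TYMS and CCNE1), with a median of 0.73 beside -0.17 in control-guide cells. MCM6, a subunit of the replicative helicase, was at 21.1, 20.7 and 21.4 TPM in guide 2 enzalutamide against 5.36, 5.17 and 5.36 TPM in the libraries labelled guide 2 in DMSO (1.81 ± 0.03). Of 28 MYC and ribosome biogenesis genes 25 rose and 1 fell, with a median of 0.70 beside -0.09 in control-guide cells. MYC was at 335, 334 and 342 TPM against 138, 141 and 134 TPM (1.29 ± 0.06; limma, adjusted p = 2.4e-11), and averaged 404 ± 12.5 TPM in control-guide enzalutamide and 437 ± 14.5 TPM in control-guide DMSO. FBL, the nucleolar methyltransferase fibrillarin, rose by 1.24. Among 34 splicing factors 13 rose and 11 fell. Their median of -0.05 turned positive with median-of-ratios (0.22) and quantile (0.16) scaling. SRSF2 rose by 1.56 and HNRNPD by 1.55. SRSF2 averaged 639 ± 17.9 TPM in guide 2 enzalutamide and 216 ± 17.4 TPM in the libraries labelled guide 2 in DMSO (SD, n = 3 each), and 655 to 761.6 TPM in the other 4 groups. WNT10B, a WNT ligand, rose by 2.27, BTN3A2, a butyrophilin, by 2.22, RCN3, an endoplasmic reticulum calcium-binding protein, by 2.12 and SAPCD2, a spindle orientation regulator, by 2.11. None of WNT10B, BTN3A2, RCN3 and SAPCD2 was called in control-guide cells.

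Lipid synthesis genes moved in both directions in guide 2 cells and mostly fell in control-guide cells. Of 17 fatty acid synthesis genes 7 rose and 8 fell in guide 2 cells (24.3% and 48.5% of all tested genes did so), while 16 fell in control-guide cells and 16 in guide 1 cells (21.3% and 20.7% of all tested genes). Of those called in both guide 2 and control-guide cells 7 had the same sign and 7 the opposite sign. FASN, fatty acid synthase, was at 534, 531 and 534 TPM in guide 2 enzalutamide against 312, 347 and 315 TPM in the libraries labelled guide 2 in DMSO, a rise of 0.72 ± 0.13 (limma, adjusted p = 2.3e-04) that was not called with TPM as deposited. In control-guide cells it was at 539 ± 49.0 TPM in enzalutamide and 1772 ± 17.4 TPM in DMSO (SD, n = 3 each), a fall of 1.72. The enzalutamide levels of the guides' cells were alike and the DMSO levels were not, and the interaction was 2.44 ± 0.19 (limma, adjusted p = 4.2e-08). The median guide 2 change of the list was -0.14 and turned positive with median-of-ratios (0.10) and quantile (0.12) scaling. Of 23 cholesterol synthesis genes 6 rose and 7 fell, against 20 that fell in control-guide cells, and of those called in both 6 had the same sign and 6 the opposite sign. The guide 2 median of -0.02 also turned positive with median-of-ratios (0.25) and quantile (0.23) scaling. SQLE, squalene epoxidase, was at 31.8, 29.1 and 31.2 TPM in guide 2 enzalutamide against 12.6, 11.9 and 12.7 TPM in the libraries labelled guide 2 in DMSO, without overlap (1.24), and fell by 0.36 in control-guide cells. STARD4, a cholesterol carrier, and HSD17B7, a steroid and cholesterol synthesis enzyme, fell in both guides' cells, by 1.63 and 2.08 in guide 2. Hypoxia-response genes mostly fell in each comparison (13 of 16 in guide 2, median -0.86, and 13 in control-guide cells, median -0.76), including BNIP3, a mitophagy receptor, which fell by 1.53, and the vasodilator peptide gene ADM, which fell by 3.20.

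OGDHL belongs to the 2-oxoglutarate dehydrogenase family of the tricarboxylic acid cycle, and genes of that cycle moved in both directions in guide 2 cells. Of 31 tested genes 13 rose and 13 fell, against 24.3% and 48.5% of all tested genes, with a median of 0.02 that turned negative with TPM as deposited (-0.15). GOT2, the mitochondrial aspartate aminotransferase, was at 107, 105 and 106 TPM in guide 2 enzalutamide against 292, 287 and 292 TPM in the libraries labelled guide 2 in DMSO (-1.45 ± 0.04) and also fell in control-guide cells, by 1.00. CS, citrate synthase, rose by 0.72 in guide 2 and fell by 0.08 in control-guide cells. SDHA, a succinate dehydrogenase subunit, fell by 0.79 and was not called in control-guide cells. Of 76 nuclear-encoded respiratory chain genes 11 rose and 40 fell, a share of falls near that of all tested genes, with a median of -0.17 that turned positive with median-of-ratios scaling (0.098) and was 0.0091 with quantile normalization. Of 29 enzymes that use 2-oxoglutarate as a substrate 19 fell and 6 rose (median -0.32), but 13 fell and 10 rose with median-of-ratios scaling. The share that rose was near that of all tested genes. Those that fell included P4HA2, a collagen prolyl hydroxylase, which fell by 1.47, and EGLN1, an oxygen-sensing prolyl hydroxylase, which fell by 1.01. Nucleotide synthesis genes rose (19 of 26, with 3 that fell), led by PAICS of the purine pathway at 194, 189.7 and 195 TPM against 73.4, 70.9 and 77.7 TPM (1.37 ± 0.05). Of 73 cytosolic ribosomal protein genes 47 rose and 3 fell, with a median of 0.24, but 4 rose and 3 fell with TPM as deposited. PPP1R12C, the gene that contains the AAVS1 locus, fell by 0.70 in guide 2 cells and was not called in control-guide cells.

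Genes that rose with drug in control-guide cells and fell in guide 2 cells were led by CDKN2B, SSTR5 and ID2. CDKN2B, which encodes the kinase inhibitor p15, was at 5.72, 5.88 and 5.15 TPM in guide 2 enzalutamide against 35.8, 40.2 and 42.4 TPM in the libraries labelled guide 2 in DMSO (-2.62 ± 0.08; limma, adjusted p = 2.4e-13). In control-guide cells it was at 4.40 ± 0.241 TPM in enzalutamide and 0.759 ± 0.152 TPM in DMSO, a rise of 1.62. SSTR5, a somatostatin receptor, fell by 1.61 in guide 2 and rose by 1.97 in control-guide cells, with 4.92 and 4.69 TPM in the enzalutamide libraries of the guides. ID2, an inhibitor of helix-loop-helix factors, fell by 1.57 and rose by 1.68. EIF4EBP1, a repressor of cap-dependent translation, was the single gene of the reverse kind past 2-fold in both, rising by 1.35 in guide 2 and falling by 1.05 in control-guide cells.

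**Figure D4:**
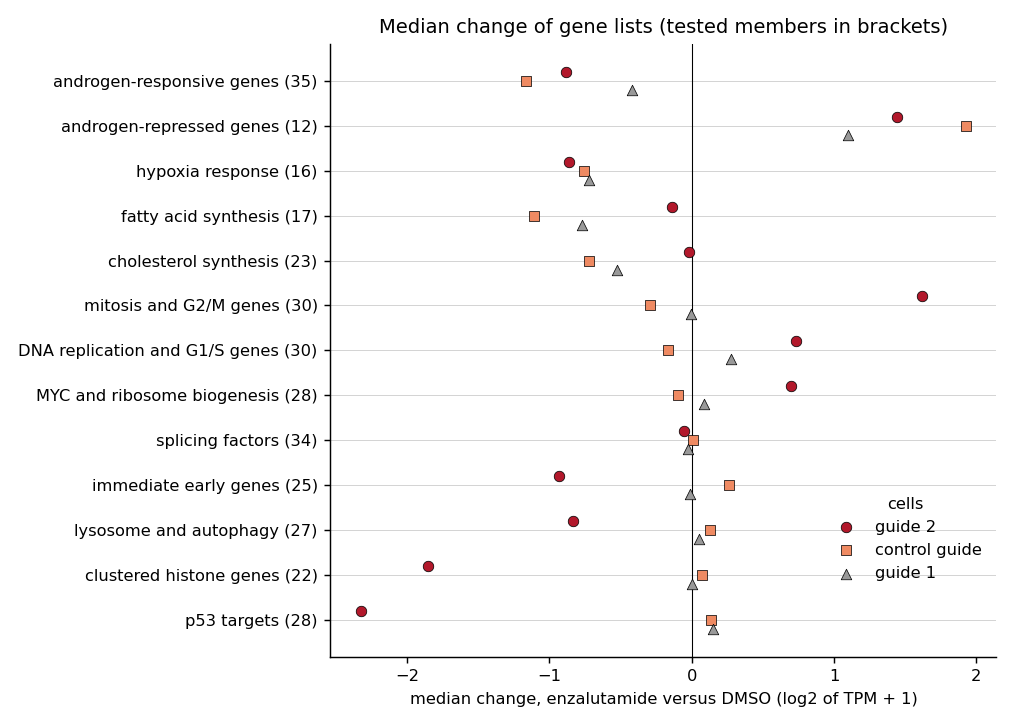
Median change with enzalutamide against DMSO (horizontal axis, log2(TPM + 1) units) of the tested members of 13 gene lists in guide 2 (circles), control-guide (squares) and guide 1 (triangles) cells. The 3 symbols lie on one side of 0 for the androgen and hypoxia lists, while the p53, histone, lysosome and mitosis lists lie far from 0 in guide 2 alone. The guide 2 medians of the fatty acid, cholesterol and splicing lists change sign with median-of-ratios and quantile scaling.

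The drug change in guide 1 cells was set beside the classes. Guide 1 libraries are on neither side of the guide 2 and control-guide comparisons, but they enter the filter and the model's estimate of the spread, so the calls that define the classes also depend on them. Among genes that changed at least 2-fold in the comparisons that define the class, a threshold chosen after the data were seen, 168 of 176 shared genes that rose (95.5%) also rose in guide 1 cells, with a median of 1.01. Of 219 shared genes that fell, 194 (88.6%) fell in guide 1 cells, with a median of -1.10. Over all tested genes 23.9% rose and 20.7% fell in guide 1 cells. Of 842 vehicle-side genes that fell, 100 (11.9%) fell in guide 1 cells and the median was -0.00. With genes that passed the filter only through the libraries labelled guide 2 in DMSO left out, 452 genes remained, of which 71 (15.7%) fell and 43 (9.51%) rose, with a median of 0.04. Of 98 vehicle-side genes that rose, 37 (37.8%) rose in guide 1 cells, with a median of 0.14. Of the 37 genes that fell in guide 2 and rose in control-guide cells, 21 rose in guide 1 cells, with a median of 0.45. Without the 2-fold limit the shares with the guide 2 sign were 68.7% and 66.5% for shared genes that rose and fell, and 26.7% and 17.5% for vehicle-side genes that rose and fell. The 3 guide 1 DMSO libraries were less alike than those of other groups, with pairwise correlations of 0.978 to 0.992, and mitochondrially encoded genes took 57.2% to 73.8% of their TPM. Across all 16694 genes the guide 2 change correlated with the control-guide change at Pearson's r = 0.34 (Spearman's rho 0.22) and with the guide 1 change at 0.34 (0.28), while control-guide and guide 1 changes correlated at 0.66 (0.50). These are correlations across genes, which are not independent replicates.

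**Figure D5:**
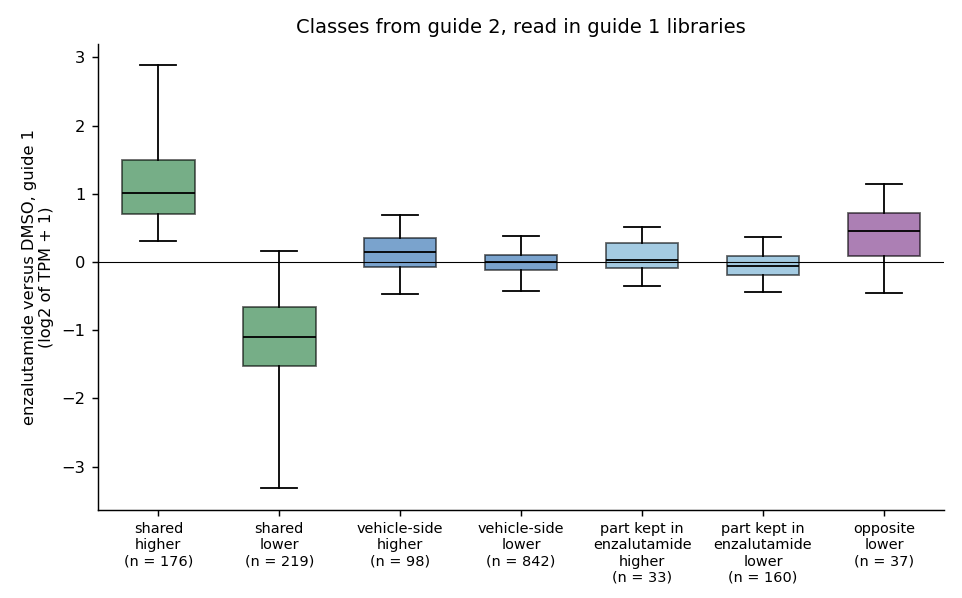
Change with enzalutamide against DMSO in guide 1 cells (vertical axis, log2(TPM + 1) units) for genes of each class that changed at least 2-fold in guide 2 cells and, in the shared and opposite classes, also in control-guide cells; boxes span the quartiles around the median and whiskers run from percentile 5 to percentile 95. The shared classes lie at medians of 1.01 and -1.10, and the vehicle-side classes at 0.14 and -0.00.

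In enzalutamide 2820 genes (16.9%) differed between guide 2 and control-guide cells, against 12597 (75.5%) in DMSO. At least a 2-fold difference was called for 45 genes (0.27%), 33 (0.198%) higher and 12 (0.0719%) lower in guide 2, against 3242 genes (19.4%) between the DMSO libraries of the same guides, 2612 (15.6%) higher and 630 (3.77%) lower in guide 2. The genes named next were chosen after their values were seen. CEL, a bile salt-activated lipase, averaged 29.3 TPM in guide 2 enzalutamide and 772.7 TPM in the libraries labelled guide 2 in DMSO, beside 4.87 TPM in control-guide enzalutamide and 9.16 TPM in control-guide DMSO. GDF15, CDKN1A and TP53I3, p53 targets, and S100P were also among the 33 and had likewise been high in the libraries labelled guide 2 in DMSO. SLPI, a secreted protease inhibitor, rose with drug instead, with 74.3 TPM in guide 2 enzalutamide and 9.04 TPM in the libraries labelled guide 2 in DMSO against 20.1 and 7.99 TPM in control-guide enzalutamide and DMSO. ADCYAP1, which encodes the neuropeptide PACAP, was the lowest relative to the control guide, at 0.932 TPM in guide 2 enzalutamide against 16.9 TPM in control-guide enzalutamide, with under 0.1 TPM in both DMSO groups. Guide 1 enzalutamide averaged 2.42 TPM for ADCYAP1, also below the control guide, and 4.10 and 13.9 TPM for CEL and SLPI. Among enzalutamide-side genes that averaged at least 5 TPM in the higher guide 2 group, without overlap of libraries, ARG2, mitochondrial arginase, rose most. It was at 47.8, 46.9 and 45.3 TPM in guide 2 enzalutamide against 24.3, 24.0 and 24.0 TPM in the libraries labelled guide 2 in DMSO (0.93 ± 0.03; limma, adjusted p = 2.0e-12). Larger rises in this class below that level included 1.87 for SNORA57, 1.36 for RPL6P20 and 1.33 for MTND3P7. ARG2 was at 26.3 ± 0.479 TPM in control-guide enzalutamide and 25 ± 0.665 TPM in control-guide DMSO, and rose by 1.12 in guide 1 cells. HOXC12, a homeobox factor, rose by 0.91, and MDK, the growth factor midkine, fell by 0.79. The count of 32 enzalutamide-side genes became 52 without guide 1 DMSO replicate 3, 21 without control-guide enzalutamide replicate 1, 18 without guide 2 enzalutamide replicate 2 and 21 without guide 2 enzalutamide replicate 3.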

How the data were processed

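RNA was measured in 18 libraries of 16D cells, 3 in each of 6 groups. The authors deposited TPM values (transcripts per 1000000) per gene, aligned with STAR to GRCh38 per the submitters' processing notes; what counted the reads, and on which annotation, is not given in the sources used here. TPM keeps no read depth, so the depth of each library is unknown and no counting interval is given. Libraries were stranded, per the labels' protocols.

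The table held 37347 lines. Unnamed lines (10345) and mitochondrially encoded genes (37) were dropped, as were 69 lines of 3 symbols, 32 repeated symbols were summed, and each library was rescaled to 1000000, which left 26863 symbols. A total of 16694 genes with at least 1 TPM in 3 or more libraries were tested on log2(TPM + 1), a scale that understates changes of low genes. Gene positions are GENCODE 29's. One limma 3.58.1 model (R 4.3.3; empirical Bayes, 12 residual degrees of freedom) was fitted to all 18 libraries with group means, and p-values were adjusted by Benjamini-Hochberg over all tested genes at 0.05. Comparisons were enzalutamide against DMSO within each guide, guide 2 against the control guide within each treatment, and the interaction of guide 2 with drug. The code was tested on simulated data. Other steps used Python 3.11.15, numpy 2.4.6, pandas 2.3.3, scipy 1.17.1 and matplotlib 3.10.9.

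Genes were named by fixed rules: the 10 largest changes among shared and vehicle-side genes in each direction, 5 in the smaller classes, up to 4 called members of each of 43 gene lists (1040 genes, 8 of them not analysed here), and a set of genes always named, such as KLK3 and CDKN1A; the genes that still differed in enzalutamide and those shown for a motif were picked with their values known. The members and lists were chosen with earlier results of these data known. Alternatives were other pseudocounts, filters, scalings, fits and weights, a replicate block and leaving out each library. Some genes of the lists and of the always-named set are not reported here.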

Additional observations from a re-analysis of the deposited data

Results flagged for a closer look

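The change with enzalutamide in guide 2 cells differed from the change in control-guide cells by limma's interaction test (adjusted p under 0.05) for the genes listed here. Each value is the guide 2 change minus the control-guide change on the log2(TPM + 1) scale, so a positive value is a larger rise or smaller fall in guide 2 cells. OGDHL, the guides' target, had a value of -1.19.

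Androgen-responsive genes had interaction values of 1.29 for KLK3, 0.87 for KLK2, 0.48 for FKBP5, 0.26 for TMPRSS2, 1.40 for SLC45A3, -1.57 for MAF, -0.80 for ELL2 and -0.78 for NDRG1. Genes that rise or fall with enzalutamide in both guides had interaction values of 1.05 for NTS, -0.75 for TRIB2, 0.50 for UGT2B15, -1.27 for UGT2B11, -2.11 for UGT2B28, -1.48 for ADRA2A, -2.31 for LRRN1, -0.83 for S100P, -1.53 for RGS2, -1.55 for ELOVL7, -3.91 for IGFBP3, -0.38 for NR3C1, 1.61 for DUSP4, 1.27 for HES6, -0.72 for SOX4, 1.68 for PEG10 and -0.50 for ENO2. p53 targets had interaction values of -4.14 for CDKN1A, -2.32 for MDM2, -3.15 for GDF15, -3.68 for FDXR and -3.22 for PHLDA3. Cell cycle, replication, growth and splicing genes had interaction values of 3.34 for CDC20, 3.33 for PLK1, 2.50 for UBE2C, 2.55 for AURKA, 2.73 for HMMR, 1.82 for MCM6, -0.93 for PCNA, 1.40 for MYC, 1.42 for FBL, 1.64 for SRSF2 and 1.54 for HNRNPD. DUX4-type and other near-silent genes had interaction values of -6.31 for TRIM49, -6.54 for MBD3L2, -6.59 for PRAMEF12, -7.24 for H3Y1, -5.53 for TRIM43B, -7.82 for SSU72P7, -6.39 for FOXS1, -4.69 for IGF2, -3.42 for COL17A1 and -3.22 for CD68. TRIM49, TRIM43B, FOXS1 and COL17A1 passed the filter on low values only through the libraries labelled guide 2 in DMSO, so their values are descriptions. Histone, lysosomal, immediate early and immune genes had interaction values of -2.39 for H1-2, -3.24 for H2AC18, -3.70 for H2BC4, -2.28 for TAP1, -1.93 for CTSD, -1.65 for NEU1, -1.97 for ATF3, -1.81 for FOS, -1.78 for KLF4 and -1.17 for NEAT1. Lipid synthesis and hypoxia genes had interaction values of 2.44 for FASN, 1.60 for SQLE, 0.51 for STARD4, -0.69 for HSD17B7, -0.51 for BNIP3 and -1.92 for ADM. The other genes had interaction values of 2.20 for WNT10B, 2.15 for BTN3A2, 2.05 for RCN3, 2.33 for SAPCD2, 2.40 for EIF4EBP1, -4.24 for CDKN2B, -3.58 for SSTR5, -3.25 for ID2, 0.85 for ARG2, 0.72 for HOXC12 and -0.58 for MDK. Levels or log2 changes stand in the results for most of these genes, but not for ELL2, NDRG1, LRRN1, TRIM49, TRIM43B, SSU72P7 and H2BC4. The libraries labelled guide 2 in DMSO enter every value.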

How the results depend on the processing

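Read depth is not kept in TPM and nothing says that the 3 libraries of a group are separate cultures. With 12 residual degrees of freedom shared by all groups, each group is assumed to vary alike. All libraries labelled guide 2 in DMSO stand apart, so no alternative removes them.

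Guide 2 gave 4057 genes higher and 8095 lower, with 572 and 2145 past 2-fold. A pseudocount of 0.1 gave 914 genes higher past 2-fold, and a pseudocount of 5 gave 213 higher and 950 lower. Without a filter 12370 genes were lower, vehicle-side genes that fell numbered 5468 against 2884, and enzalutamide-side genes 69 against 32. A filter of 5 TPM gave 1918 and 20. TPM as deposited gave 1507 higher, 228 higher past 2-fold, 2796 called in control-guide cells, 4007 in guide 1 cells and 5849 by interaction. It left 1464 shared, 575 opposite, 544 vehicle-side higher and 3 enzalutamide-side genes, with 6.21% of vehicle-side genes of the same sign in guide 1. Median-of-ratios scaling gave 6341 higher, 5388 lower, 928 higher past 2-fold and 1739 and 1612 vehicle-side genes. Quantile normalization gave 6764 higher, 5390 lower, 1122 and 1390 past 2-fold, 1931 and 1744 vehicle-side genes and 51 enzalutamide-side genes. Fitting each comparison's libraries alone gave 3769 calls in guide 1, 65 enzalutamide-side genes and same-sign shares in guide 1 of 41.5% for shared and 7.76% for vehicle-side genes. Array weights, whose estimation stopped short of its tolerance, gave 12650, 74 and, for vehicle-side genes, 36.3%. Beyond the scalings themselves, the cause was not tested.

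Leaving out 1 library at a time gave 3771 to 4405 genes higher, 7652 to 8563 lower, 564 to 604 and 2079 to 2185 past 2-fold, 18 to 52 enzalutamide-side genes, 7292 to 9622 calls in control-guide cells and 6161 to 10063 in guide 1 cells. Among 170 results for single genes, the other settings kept direction and call in 1670 cases, lost the call in 15, gained it in 11 and reversed in 0. Across all genes, however, some calls took the opposite sign: 342 after quantile normalization and 201 under median-of-ratios. The remaining settings reversed no call. Of the 3787 vehicle-side genes, quantile normalization kept 2260 in that class and median-of-ratios kept 2072.

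Same-numbered libraries did not pair: their correlations in guide 2 cells were 0.0047, 0.020 and 0.0064. With the replicate number as a block, 3800 genes were higher, 7772 lower and 7 on the enzalutamide side.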
